A study of Mus musculus with 2 samples.

Results

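Radial glial cells (RGCs) are the neural stem cells of the developing cerebral cortex, and the cells described here were the RGCs with high transcript counts of *Top2a*, *Mki67* and *Cenpf*, 3 genes of late S phase, G2 and mitosis. They came from 2 droplet-based 3' single cell RNA sequencing (scRNA-seq) libraries of the mouse dorsal telencephalon at E14.5, where every captured RNA molecule is tagged by a unique molecular identifier (UMI). A barcode was kept if it held from 1500 to 60000 UMIs of which less than 10% were mitochondrial. A member had at least 4 UMIs of *Sox2*, *Hes1*, *Hes5* and *Sox9* together, which RGCs express, and at least 5 UMIs of *Top2a*, *Mki67* and *Cenpf* together. It also had at most 1 UMI of *Eomes* and at most 1 of *Neurog2*, transcription factors of intermediate progenitor cells (IPCs) and of neurogenic divisions. Cells with more than 2 UMIs of the projection neuron genes *Neurod2* and *Neurod6*, or more than 1 UMI of the GABAergic genes *Gad1*, *Gad2* and *Dlx6os1*, were left out. The rule was met by 307 cells of replicate 1 and 624 cells of replicate 3, or 931 of 12936 kept barcodes, and these cells are called Top2a-high RGCs hereafter.

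Both libraries were from WT embryos of an Eomes-Cre line, labelled EoMltt3, in which they served as controls, and the labels give no treatment. The labels name the tissue brain hemispheres, and per the extraction protocol the dorsal telencephalon was taken and dissociated with papain. The libraries form 1 group, and every comparison was made between classes of cells within them. Neither the sex, nor the number of embryos per library, nor whether the WT embryos carried an unused Cre allele is stated in the labels. The study's methods give the strain as C57BL/6J and each sample as loaded on its own, and they count embryos without tying them to libraries. Since litter and animal are thus not given per library, p-values measure only the spread between these 2 samples, which may be technical. Both libraries were a snapshot at 1 age, and no cell was followed through its cycle.

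During the cycle, the nucleus of an RGC replicates its DNA away from the ventricle, moves to the ventricular surface in G2 and divides there. Entry into mitosis is driven by the kinase CDK1 with its A and B type cyclins, and exit follows when the anaphase promoting complex, loaded by CDC20 and UBE2C, marks cyclin B and securin for destruction. Many genes of G2 and mitosis are held silent earlier in the cycle by a repressor complex at the cell cycle genes homology region (CHR) of their promoters and are switched on by MYBL2 and FOXM1, whereas genes of DNA replication are mainly under E2F factors.

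Replicate 1 held 6163 barcodes and 64182006 UMIs, and replicate 3 held 8870 barcodes and 93295807 UMIs. After filtering, 5453 and 7483 barcodes were kept, with a median of 10627 and 10895 UMIs. The libraries shared 23 barcode sequences. Of the members, 7 (2.28%) in replicate 1 and 11 (1.76%) in replicate 3 were predicted doublets, against 4.36% and 5.99% of all kept barcodes, and none was removed from the main analysis. Because UMIs of free RNA enter all droplets, the red blood cell gene *Hbb-bs* served as a gauge, and after thinning of each cell to 5000 UMIs it had a UMI in 19% and 57.7% of the members in replicates 1 and 3, and in 29.1% and 62.5% of the S gene-high RGCs defined further on. In what follows, paired values are always given for replicate 1 and then replicate 3, and levels are CPM, the UMIs of a gene scaled to the total UMIs of all cells of a class together.

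Top2a-high RGCs made up 5.63% (95% Wilson interval 5.05% to 6.27%) of the kept barcodes in replicate 1 and 8.34% (7.73% to 8.99%) in replicate 3, or 6.98% ± 1.92 (SD, n = 2). Among the 536 and 1222 RGCs that met the rule without its cycle term, they made up 57.3% (53.1% to 61.4%) and 51.1% (48.3% to 53.9%), or 54.2% ± 4.39 (SD, n = 2). The intervals of the 2 libraries did not overlap for the share of barcodes and overlapped for the share of RGCs. Intervals cover counting error only. Members held a median of 16108 and 15676.5 UMIs, above the 10627 and 10895 of all kept barcodes, and since the thresholds were raw UMIs, depth was tied to the choice. As a description of what the rule used, the sum of *Top2a*, *Mki67* and *Cenpf* had a median of 27 and 23 UMIs with a maximum of 183 and 192, and the sum of *Sox2*, *Hes1*, *Hes5* and *Sox9* a median of 12 and 10.

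On the RGC side of the name, markers that the rule did not use were seen in most members. *Vim*, an intermediate filament gene of radial fibres, had a UMI in 99.3% and 98.7% of the members after thinning to 5000 UMIs, which 306 and 617 of them reached. *Fabp7*, a fatty acid binding protein of RGCs, was seen in 96.4% and 94.3%, *Pax6*, the transcription factor of pallial RGCs, in 66.3% and 60.1% and the filament gene *Nes* in 63.1% and 70.3%. Without thinning *Pax6* was seen in 89.9% and 91.8%. These markers were not particular to the members. In the 16 and 22 cycling IPCs defined further on, *Vim* was seen in 81.25% and 81.8% after thinning and *Fabp7* in 87.5% and 81.8%. *Pax6* was seen in 68.75% and 45.5% of these IPCs, and *Nes* in fewer, 25% and 31.8%. The cycle side of the name held for a part of the cells only. At least 5 UMIs of *Ccnb1*, *Cdc20*, *Plk1* and *Aurka* together, genes of late G2 and mitosis, were present in 169 of 307 members (55.0%, 49.5% to 60.5%) and in 339 of 624 (54.3%, 50.4% to 58.2%), while 63 (20.5%) and 150 (24.0%) had at most 1. At least 8 UMIs of *Pcna*, *Mcm2*, *Mcm3*, *Mcm5*, *Mcm6* and *Hells* together, genes of replication, were present in 178 (58.0%) and 345 (55.3%) members, next to 55.4% and 54.2% of all RGCs of the rule without its cycle term. Both thresholds were passed by 69 (22.5%) and 114 (18.3%) members, and 54 and 124 members had a high S gene sum with at most 1 UMI of the mitosis genes. Top2a-high RGCs therefore comprised cells with an S phase profile next to cells with a G2 and mitosis profile, and they are named here by their leading genes rather than by a phase.

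**Figure D1:**
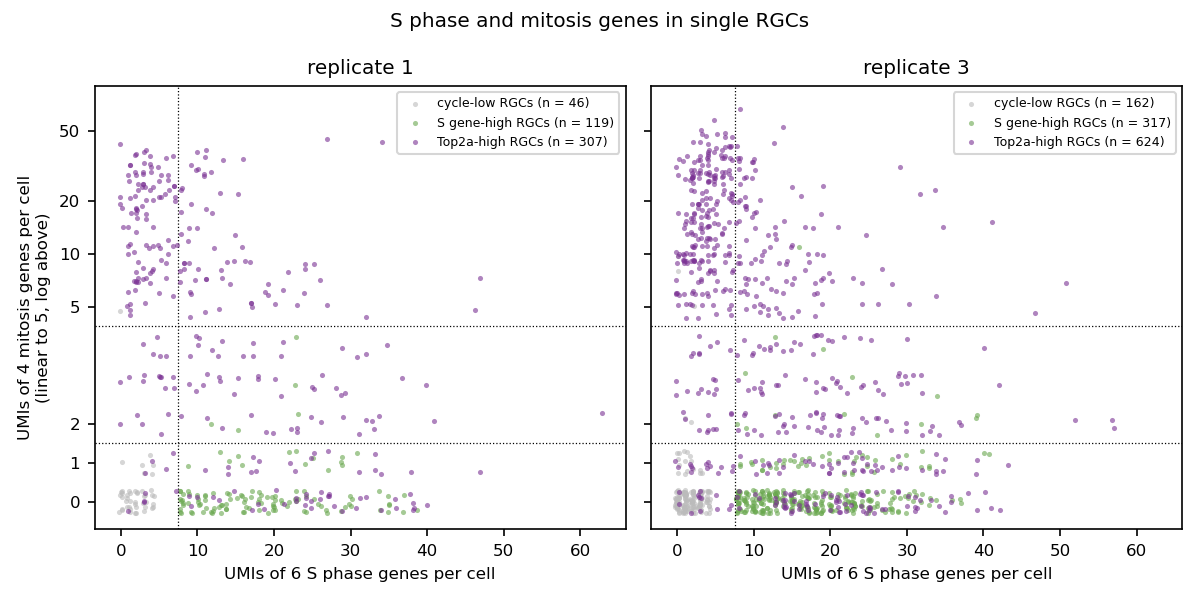
Each point is 1 RGC, with its summed UMIs of the 6 S phase genes on the x axis and of the 4 mitosis genes on the y axis (linear to 5, log above), in replicate 1 and replicate 3, and dotted lines mark 8 UMIs on the x axis and 2 and 5 UMIs on the y axis. Top2a-high RGCs (purple, 307 and 624 cells) reach from the upper left to the lower right, with 69 and 114 cells past both thresholds of 8 and 5, while S gene-high RGCs (green, 119 and 317) and cycle-low RGCs (grey, 46 and 162) lie along the lower edge.

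At the edge of the rule, 30 and 76 members had 5 or 6 UMIs of the rule's cycle genes, with a median of 1 UMI of the mitosis genes in both replicates. Their *Cdk1* level was 139.8 and 86.9 CPM and their *Ube2c* level 153 and 121 CPM. Just outside, 56 and 88 RGCs with 3 or 4 such UMIs had 38.8 and 100.4 CPM of *Cdk1* and 67.1 and 75.5 CPM of *Ube2c*. The 176 and 346 members with 20 or more reached 393 and 443 CPM of *Cdk1* and 962 and 1125 CPM of *Ube2c*, so that the cells just inside the threshold lay closer to those just outside than to the upper part of the class.

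A total of 3 classes of cells were set beside the Top2a-high RGCs. S gene-high RGCs met the same rule with at most 4 UMIs of *Top2a*, *Mki67* and *Cenpf* and at least 8 of the 6 S phase genes (119 and 317 cells). Cycle-low RGCs had at most 1 and at most 4 UMIs of these groups (46 and 162 cells). Cycling IPCs had at least 3 UMIs of *Eomes*, passed the same threshold of 5 UMIs for *Top2a*, *Mki67* and *Cenpf* and were few (16 and 22 cells). UMIs were summed per class and replicate and compared with edgeR's quasi-likelihood test, in which a gene passed at a Benjamini-Hochberg adjusted p under 0.05 over all genes tested, and the genes that chose the classes were not tested. Fold changes are log2 with a standard error (SE), and a gene that did not pass was not shown to be at the same level. Where both values of a class lay beyond both values of another, this is a description and no further evidence. The share of all genes tested that separate in this way is not given. Where the choice of cells fixed the direction of a list of genes, values and counts are given as a description and without p.

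Compared with S gene-high RGCs, Top2a-high RGCs had higher levels of genes of mitotic entry, chromosome condensation, the kinetochore, the spindle and cytokinesis, lower levels of some replication genes, while no RGC identity gene passed the test. Of 11668 genes tested, 251 (2.15%) passed, 237 higher (2.03%) and 14 lower (0.12%) in the Top2a-high RGCs. With the replicate as a block, 561 passed. Since the classes were chosen by cycle genes, nothing is read from the counts of the cycle lists.

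In the list of the CDK1 switch, which holds cyclins, CDK1, its activating phosphatases and its regulators, 16 of 20 tested genes were higher, with a median log2 difference of 3.09 against -0.01 over all genes tested. *Cdk1* stood at 312 and 342 CPM in the Top2a-high and 38.3 and 50.3 CPM in the S gene-high RGCs, a log2 difference of 2.85 (SE 0.18). *Ccnb2*, which encodes cyclin B2, stood at 143 and 139 against 9.43 and 11.6 CPM, a difference of 3.64 (SE 0.16). For both genes the lower replicate of the Top2a-high RGCs lay above the higher replicate of the S gene-high RGCs. Of the anaphase promoting complex list 7 of 20 were higher, with a median of 0.52, led by the ubiquitin-conjugating enzyme gene *Ube2c* at 701 and 795 against 21.4 and 24.7 CPM (4.98).

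Of the condensin and chromosomal passenger list, 17 of 20 were higher (median 3.25), and of the kinetochore and checkpoint list 19 of 23 (median 2.26). *Cenpe*, a kinesin that holds kinetochores to microtubules, stood at 290.0 and 279.5 against 7.54 and 12.6 CPM (4.65). The spindle and centrosome list had 18 of 25 higher (median 2.05). Its highest difference was that of the hyaluronan receptor and spindle gene *Hmmr*, at 182 and 169 against 2.51 and 2.47 CPM (5.82), while *Tpx2*, which activates AURKA on the spindle, stood at 343 and 314 against 12.6 and 18.3 CPM (4.31). The cytokinesis list had 13 of 18 higher (median 3.0), with the midzone crosslinker gene *Prc1* at 435 and 396 against 16.3 and 20.2 CPM (4.44). None of the genes of the 6 lists named so far was lower past the threshold.

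Replication genes were split, with 2 higher and 7 lower of 34 tested and a median of -0.13. The uracil glycosylase gene *Ung* stood at 19 and 25.7 CPM in the Top2a-high against 81.7 and 87.6 CPM in the S gene-high RGCs (-1.87). The licensing factor gene *Cdt1* stood at 26.2 and 28.1 against 51.5 and 52 CPM (-0.90), and the transcription factor gene *E2f1* at 27 and 23.4 against 46.5 and 55.7 CPM (-1.01). The others lower were *Gins2*, *Mcm4*, *Chaf1b* and *Dtl*, whereas *Rrm1* and *Rrm2*, which encode ribonucleotide reductase, were higher, *Rrm2* at 225 and 249.6 against 129 and 159.8 CPM. GINS2 and MCM4 belong to the helicase that opens replication origins, CHAF1B to a chromatin assembly factor and DTL to the ligase that removes CDT1. Of 19 chromatin proteins 5 were higher (*Hmgb1*, *Hmgb2*, *H2afx*, *H1f0* and *H1fx*), with *Hmgb2*, a DNA-bending protein gene, at 3128 and 2863 against 788 and 768 CPM (1.96). Outside the lists, the lowest difference was that of the alkylation repair gene *Alkbh2*, at 7.96 and 7.55 against 32.7 and 38 CPM (-2.1). Of 15 nuclear envelope genes 2 were higher.

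Outside the cycle, the lists showed few differences. Both classes had met the same limits on radial glia, *Eomes*, *Neurog2* and neuron genes. Few differences in RGC identity, Notch pathway and neurogenic commitment genes thus partly follow from the choice of cells. Of 30 RGC identity genes, 0 passed in edgeR, 0 in DESeq2 and 2 had an unadjusted p under 0.05, with a median log2 difference of 0.05 and a range of -0.66 to 0.54. *Nes* stood at 265 and 259 CPM in the Top2a-high and 252 and 240.0 CPM in the S gene-high RGCs (0.11, SE 0.15, edgeR adjusted p = 0.904). *Fabp7* differed more between the libraries, at 4219 and 2619 CPM, than between the classes, at 4528 and 3065 CPM in the S gene-high RGCs (-0.14, SE 0.34, edgeR adjusted p = 0.953). With the replicate block 3 genes of this list passed, beside 561 of all 11668 genes tested. *Pax6* was higher (0.54, edgeR adjusted p = 0.00662), at 239 and 215 against 167 and 148 CPM, and *Tnc*, which encodes the matrix protein tenascin C, and *Aldoc*, a glycolytic enzyme gene of RGCs, were lower (-0.73 and -0.39, adjusted p = 0.034 and 0.0388). These 3 were not past the threshold without the block.

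Of 23 Notch pathway genes, which keep RGCs from differentiating, 23 neurogenic commitment genes and 26 genes of apical junctions and polarity, 0 passed in edgeR, with and without the block, or in DESeq2, and 1 gene of each list had an unadjusted p under 0.05. Their medians were 0.03, -0.05 and 0.05. Among 31 primary cilium genes 1 passed, *Ift80*, a subunit gene of the intraflagellar transport train, at 61.1 and 58.9 CPM in the Top2a-high against 34.6 and 27.6 CPM in the S gene-high RGCs, a difference of 0.97 (SE 0.17, edgeR adjusted p = 0.0191). It also passed against cycle-low RGCs (28.5 and 33.1 CPM, 0.98, SE 0.19, edgeR adjusted p = 0.0102). All 17 glycolysis genes had a negative log2 difference (median -0.30), 0 of them passed in edgeR or DESeq2, and 2 had an unadjusted p under 0.05. With the block 15 replication, 11 chromatin and 4 nuclear envelope genes passed.

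**Figure D2:**
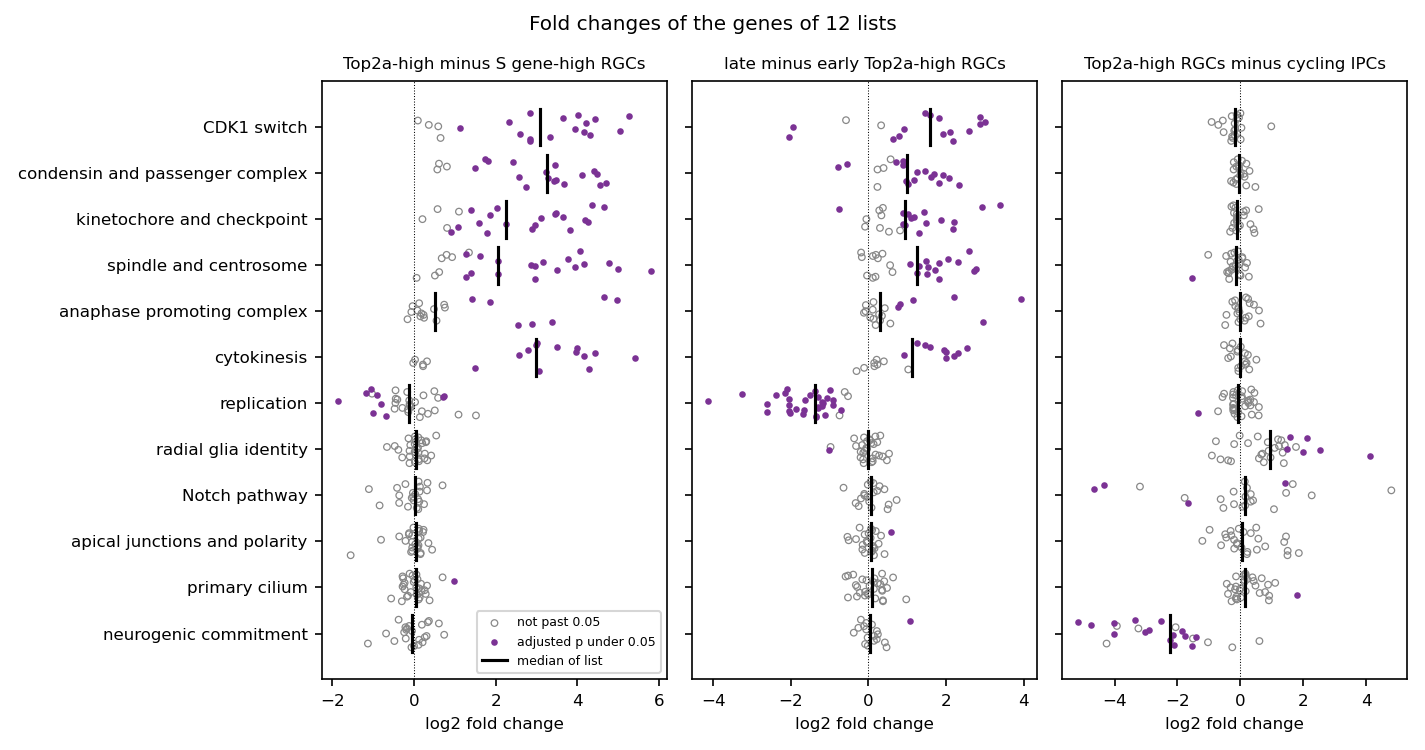
Log2 fold change (x axis) of the genes of 12 lists (rows), 1 point per gene, purple where the adjusted p was under 0.05 and open where it was not, with a black bar at the list's median, for Top2a-high minus S gene-high RGCs (left), late minus early Top2a-high RGCs (middle) and Top2a-high RGCs minus cycling IPCs (right). The replication list has its median at -0.13 in the left panel and at -1.37 in the middle panel, and in the right panel the cycle lists are centred near 0 while neurogenic commitment lies at -2.25.

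Promoters of the genes that were higher in the Top2a-high RGCs were read from RefSeq (GRCm38.p6), from 250 bases before to 50 bases after the annotated start. They were searched on both strands for 3 motifs, namely the CHR (TTTGAA), the CCAAT box, which binds NF-Y (CCAAT), and the E2F site (TTTGGCGC or TTTCGCGC). A window was found for 195 of the 237 genes higher than in S gene-high RGCs and for 27025 mouse genes in all. The windows of *Ube2c*, *Cdk1*, *Ccnb2* and *Cdc20* are shown because these genes carry the mitotic profile of the cells and hold CHR and CCAAT motifs near the start, and that of *Cdt1* because it was among the replication genes with lower levels and holds an E2F motif. Capitals mark the motifs, and each sequence is written 5′ to 3′ on the strand of the gene.
Ube2c (chr2:164769679-164769978, plus strand): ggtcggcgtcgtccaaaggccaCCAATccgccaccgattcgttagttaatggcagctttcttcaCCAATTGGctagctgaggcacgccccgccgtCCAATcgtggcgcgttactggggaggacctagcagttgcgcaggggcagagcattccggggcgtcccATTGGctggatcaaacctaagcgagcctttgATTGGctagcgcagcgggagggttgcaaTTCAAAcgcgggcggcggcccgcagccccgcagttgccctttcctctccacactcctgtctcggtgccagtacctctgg
Cdk1 (chr10:69352863-69353162, minus strand): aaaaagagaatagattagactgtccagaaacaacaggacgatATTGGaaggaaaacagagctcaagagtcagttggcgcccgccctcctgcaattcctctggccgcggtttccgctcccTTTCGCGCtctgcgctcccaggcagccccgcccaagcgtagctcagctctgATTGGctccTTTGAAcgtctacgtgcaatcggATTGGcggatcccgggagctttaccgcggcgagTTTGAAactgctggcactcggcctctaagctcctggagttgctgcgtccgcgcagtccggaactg
Ccnb2 (chr9:70421505-70421804, minus strand): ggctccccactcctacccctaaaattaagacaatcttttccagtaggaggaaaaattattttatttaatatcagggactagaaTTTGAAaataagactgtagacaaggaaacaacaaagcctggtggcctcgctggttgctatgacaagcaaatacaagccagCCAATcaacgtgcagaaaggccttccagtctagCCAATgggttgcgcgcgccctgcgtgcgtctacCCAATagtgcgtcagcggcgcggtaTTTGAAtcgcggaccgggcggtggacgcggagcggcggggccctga
Cdc20 (chr4:118437294-118437593, minus strand): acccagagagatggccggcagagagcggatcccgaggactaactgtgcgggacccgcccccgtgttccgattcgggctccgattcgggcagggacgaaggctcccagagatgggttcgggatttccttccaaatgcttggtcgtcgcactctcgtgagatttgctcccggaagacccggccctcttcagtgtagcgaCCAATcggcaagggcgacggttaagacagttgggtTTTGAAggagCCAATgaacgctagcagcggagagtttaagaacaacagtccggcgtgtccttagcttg
Cdt1 (chr8:122567765-122568064, plus strand): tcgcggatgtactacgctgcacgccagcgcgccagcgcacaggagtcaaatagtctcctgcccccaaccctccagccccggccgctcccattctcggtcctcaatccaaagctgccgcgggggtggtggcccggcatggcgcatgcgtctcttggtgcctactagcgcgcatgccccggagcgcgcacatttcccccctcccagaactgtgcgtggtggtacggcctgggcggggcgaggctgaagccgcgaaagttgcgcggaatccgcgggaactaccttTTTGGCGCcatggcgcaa

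In *Ube2c* the CHR motif began 29 bases before the start and the nearest CCAAT box, in reverse orientation, 57 bases before it. *Cdk1* had CHR motifs at 71 and 15 bases before the start, reverse CCAAT boxes at 80 and 48 bases before it and an E2F motif at 131 bases before it. In *Ccnb2* 3 CCAAT boxes began 87, 54 and 21 bases before the start, with a CHR motif beginning at base 5 of the transcript, and in *Cdc20* the CHR motif began 18 bases before the start. *Cdt1* held no CHR motif and no CCAAT box in this window, and its E2F motif began at base 33 of the transcript.

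A CHR motif was present in 102 of the 195 windows (52.3%) of genes higher in Top2a-high than in S gene-high RGCs and in 5466 of all 27025 windows (20.2%). Within 50 bases of the start it was present in 78 (40.0%) of the former and 5.94% of all windows. CHR and CCAAT motifs occurred together in 83 of the 195 windows (42.6%), next to 7.97% of all windows, and in 3 of them they overlapped. An E2F motif was present in 8 of the 195 windows, or 4.1%, next to 0.929% of all windows. Among the 9257 tested genes with a window, from which the genes past the threshold were drawn, these shares were 14.4% for the CHR, 4.14% for a CHR within 50 bases of the start, 6.13% for CHR and CCAAT motifs together and 1.81% for E2F. These are letter matches and were not tested as binding sites.

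**Figure D3:**
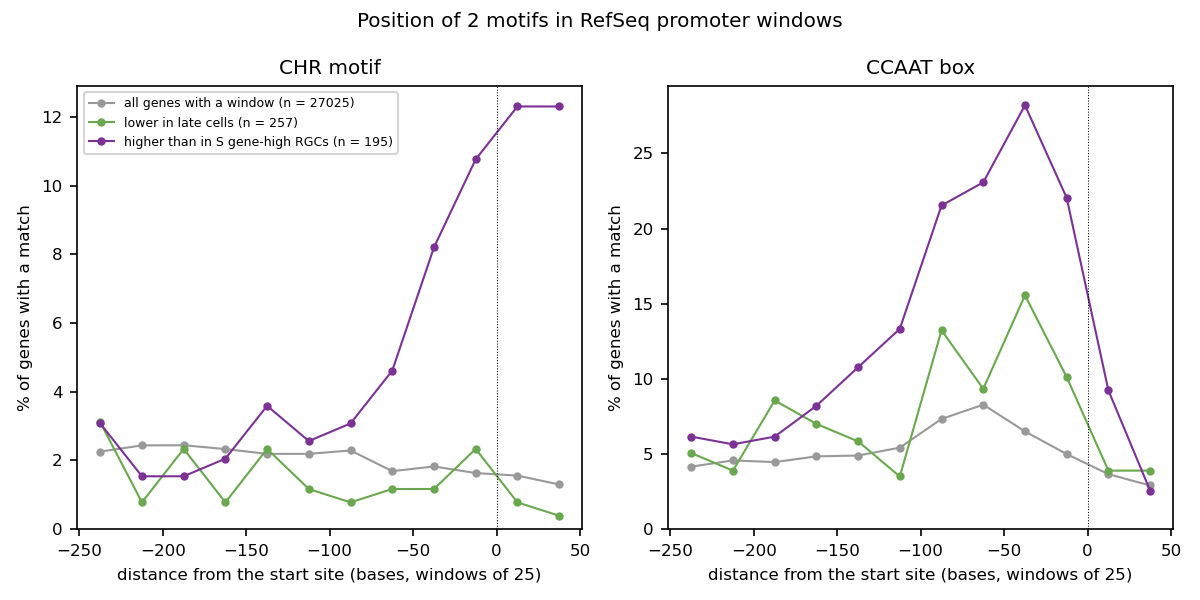
Percent of genes (y axis) with a CHR motif (left) or CCAAT box (right) in each bin of 25 bases of the promoter window (x axis, distance from the annotated start), for 195 genes higher in Top2a-high than in S gene-high RGCs (purple), 257 genes lower in late than in early Top2a-high RGCs (green) and all 27025 genes with a window (grey). CHR motifs of the first set lie mostly within 50 bases of the start (40.0% of its genes, against 5.94% of all windows).

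How the members varied among themselves was described along their summed UMIs of *Ccnb1*, *Cdc20*, *Plk1* and *Aurka*. Members with 5 or more (169 and 339 cells) are called late and those with at most 1 (63 and 150 cells) early. From early to late, replication genes were lower while genes of mitotic entry, the kinetochore, the spindle and cytokinesis were higher, and most genes of RGC identity, Notch signalling, polarity and the cilium did not pass the test. Of 11284 genes tested, 587 (5.2%) passed, with 272 (2.41%) higher and 315 (2.79%) lower in late members, and 2059 passed with the replicate block. The replication and mitosis lists follow from the split and are described without p.

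Of 34 replication genes 31 were lower in late members, with a median log2 difference of -1.37 against 0.01 over all genes tested. Over 4 bins of 0 to 1, 2 to 4, 5 to 19 and 20 or more mitosis UMIs, *Ung* was at 61.3 and 78.1 CPM, 24.7 and 39.6 CPM, 4.18 and 4.34 CPM and 2.95 and 1.93 CPM. *Rrm2* was at 355 and 401 CPM, 323 and 358 CPM, 189.8 and 195 CPM and 91.3 and 116 CPM. Both genes were lower in each bin than in the bin before it, in both replicates.

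Other genes that were low near mitosis were the origin licensing gene *Cdc6*, at 4.95 and 4.95 CPM in late against 55 and 51.4 CPM in early members (-3.27), the cyclin E gene *Ccne2* at 10.9 and 6.44 against 69.8 and 41 CPM (-2.61) and the DNA ligase gene *Lig1* at 91.7 and 85.7 against 371 and 364 CPM (-2.05). *Cdt1*, whose promoter is printed here, was at 9.56 and 11.2 against 59.2 and 55.8 CPM (-2.38). For these 4 genes both late values lay under both early values. Of the 257 genes lower in late members that had a promoter window, 37 (14.4%) held a CHR motif, 12 (4.67%) within 50 bases of the start, and 18 (7.0%) an E2F motif. The CHR share was that of the genes tested in the class comparison (14.4%), with 4.14% of those near the start and 1.81% with an E2F motif. The 218 windows of genes higher in late members held a CHR motif in 95 cases (43.6%), 65 of them (29.8%) within 50 bases of the start, and an E2F motif in 6 (2.75%).

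On the side of mitosis, *Cdk1* was at 150.2 and 158 CPM, 199 and 222 CPM, 298 and 340.3 CPM and 539 and 587 CPM over the 4 bins, and *Ube2c* at 57.1 and 88.4 CPM, 199 and 172 CPM, 594 and 737 CPM and 1716 and 1929.7 CPM. The transcription factor gene *Foxm1* was at 21.2 and 22.2 CPM, 26.4 and 29.7 CPM, 40.6 and 41.3 CPM and 36.8 and 35 CPM. *Cdk1* and *Ube2c* were higher in each bin than in the one before in both replicates, whereas *Foxm1* was lower in the last bin than in the third. *Mybl2*, the partner of FOXM1 in switching on mitotic genes, went the other way, at 12.5 and 11.2 CPM in late and 62.4 and 41 CPM in early members (-2.04, SE 0.24). In the CDK1 switch list 13 of 17 tested genes were higher and 2 lower, which were *Mybl2* and *Pkmyt1*, the gene of a kinase that inhibits CDK1, at 12.9 and 7.27 against 34.9 and 41.5 CPM (-1.95). The phosphatase genes *Cdc25b* and *Cdc25c*, whose products remove that inhibition, were at 42.9 and 39.8 against 7.4 and 2.96 CPM (3.02) and 98.9 and 102 against 9.52 and 14.8 CPM (2.88).

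Securin, encoded by *Pttg1* and destroyed at anaphase, was at 345 and 343 CPM in late and 30.7 and 51.9 CPM in early members (2.95), and *Cenpa*, the histone variant gene of centromeres, at 419 and 446 against 27.5 and 48.4 CPM (3.4). Counts over the lists were 14 higher and 2 lower of 20 for condensin and the passenger complex, 14 and 1 of 23 for the kinetochore and 14 and 0 of 25 for the spindle. They were 10 and 0 of 18 for cytokinesis and 6 and 0 of 19 for the anaphase promoting complex. The lower members were *Ncapg2* and *Ncapd3*, subunit genes of condensin II, and *Cenpk*, a gene of the inner kinetochore. Outside these lists, the helicase gene *Pif1* was at 45.5 and 46.4 CPM in late and 0 and 1.48 CPM in early members and the importin gene *Kpna2*, which carries cargo into the nucleus, at 141 and 123 against 9.52 and 17.3 CPM (3.11). *Cdkn3*, a phosphatase gene that acts on CDK1, and *Cdkn2d*, a CDK4 and CDK6 inhibitor gene, were the 2 higher of 17 G1 cyclin and inhibitor genes, of which 8 passed with the block.

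**Figure D4:**
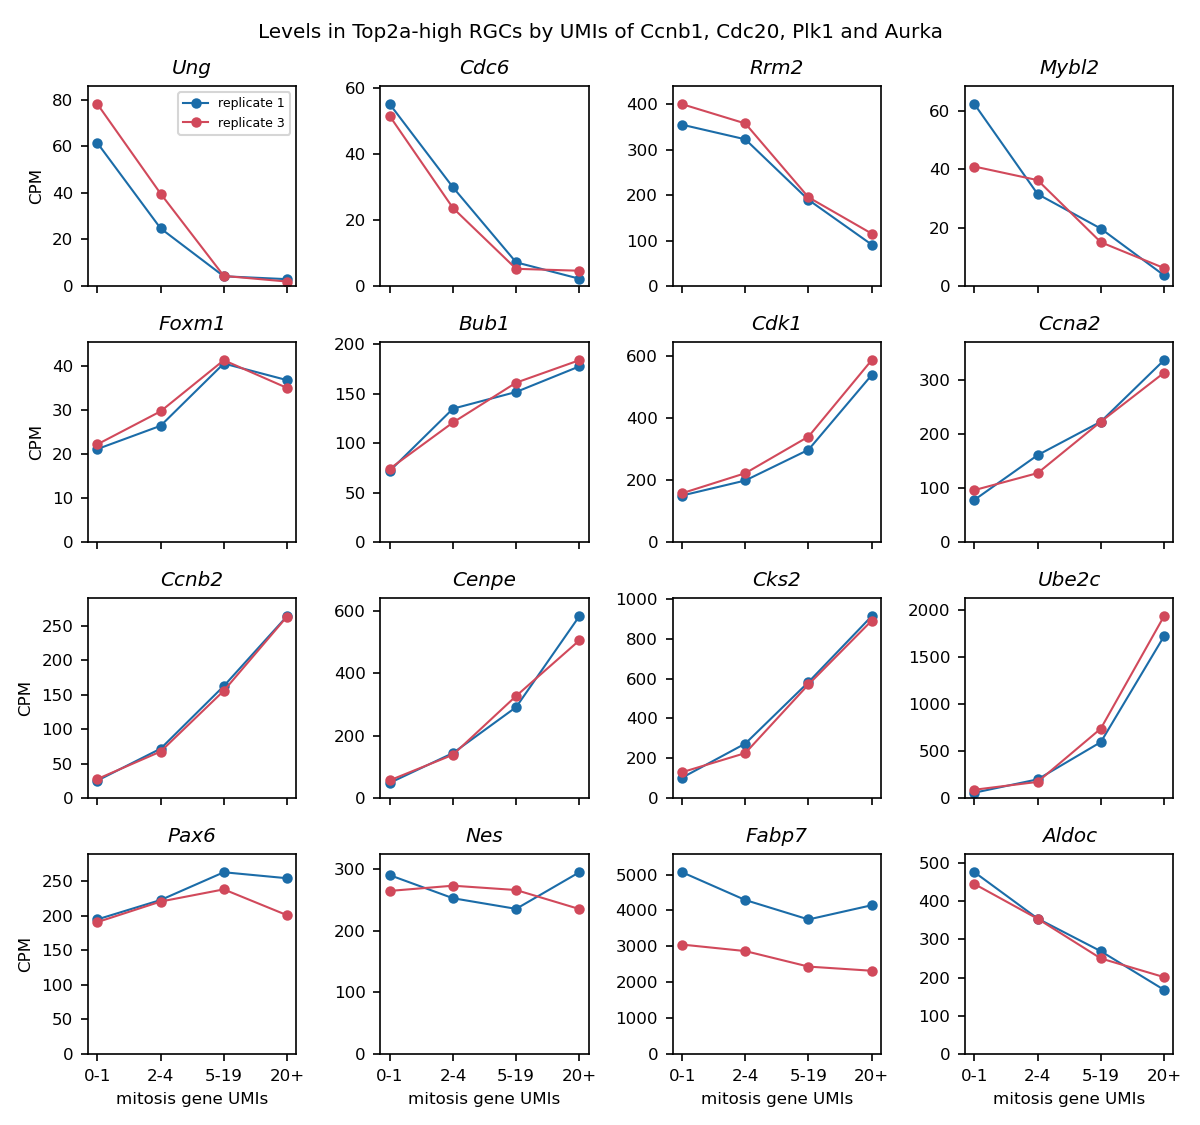
Levels (CPM, y axis from 0) of 16 genes in Top2a-high RGCs in 4 bins of their summed UMIs of Ccnb1, Cdc20, Plk1 and Aurka (x axis, 0 to 1, 2 to 4, 5 to 19, 20 or more), with 1 line per replicate. Ung and Rrm2 are lower in each bin than in the one before, Cdk1 and Ube2c are higher, and the 2 replicates show the same order for these 4 genes.

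The lists outside the cycle were tested between late and early members. Of 30 RGC identity genes 1 passed, *Aldoc*, which was lower in late members at 224 and 229 CPM than in early members at 475 and 444 CPM (-1.03, SE 0.12, edgeR adjusted p = 0.00373). Under the replicate block 8 passed, with *Pax6* (0.29), *Vim* (0.18), *Zfp36l1* and *Tfap2c* higher and *Fabp7* (-0.37), *Mfge8*, *Tnc* (-1.04) and *Aldoc* lower. In this split the block leaves 1 residual degree of freedom, so calls made under it rest on a poor estimate of the spread. Of all 11284 genes tested 2059 passed with the block, and the counts of each list under the block are to be read beside that share. The levels behind these small differences were 259 and 222 against 195 and 191 CPM for *Pax6* and 1646 and 1442 against 1443 and 1268 CPM for *Vim*. The median of the list was 0.00 and its range -1.03 to 0.53. Of 19 Notch pathway genes 0 passed in edgeR or DESeq2, 3 had an unadjusted p under 0.05, and 3 passed with the block, among them *Nrarp* (higher) and *Maml3* (lower). Over all 11284 genes tested, 2148 had an unadjusted p under 0.05 in edgeR without the block.

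The antiproliferative gene *Btg2*, which marks neurogenic divisions, was the only gene of 18 neurogenic commitment genes to pass, at 41.5 and 38.8 CPM in late and 18 and 18.8 CPM in early members (1.08, SE 0.19, edgeR adjusted p = 0.0176). It did not pass in DESeq2 (adjusted p = 0.0984) or with the cells thinned to 5000 UMIs before the split (edgeR adjusted p = 0.0603). *Ctnnd1*, which encodes the adherens junction protein p120 catenin, was the only one of 25 polarity genes to pass, at 131 and 125 against 85.7 and 84 CPM (0.58, SE 0.13, edgeR adjusted p = 0.0445), and it was lost under several other settings, among them DESeq2 (adjusted p = 0.198). Of 30 cilium genes 0 passed in edgeR or DESeq2, 6 had an unadjusted p under 0.05 and 5 passed with the block. Over all 11284 genes tested, 2148 had an unadjusted p under 0.05 in edgeR and 2059 passed with the block. Of 16 glycolysis genes 0 passed in edgeR or DESeq2, 3 had an unadjusted p under 0.05 and 6 passed with the block, of which *Slc2a1*, the glucose transporter gene, was higher and *Gpi1*, *Pfkl*, *Gapdh*, *Pkm* and *Ldha* were lower. Late members also held more UMIs, with a median of 17835 and 17495 against 14897 and 13633 in early members.

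Markers of the meninges, pericytes and choroid plexus moved with this split. Of 5 tested meningeal markers 4 were higher in late members, the summed level of the list was 52.1 and 115 CPM in late and 7.4 and 17.3 CPM in early members, and *Col1a1*, a collagen gene of fibroblasts, was at 11.2 and 16.7 CPM in late members and at 0 in both replicates of early members. After removal of cells with 5 or more UMIs of markers of endothelial, pericyte, meningeal, microglial and choroid plexus cells, which were 14 (4.56%) and 37 (5.93%) of the members, 0 of the meningeal markers passed in edgeR. The removal used these same markers, so this outcome follows from it and is no result. Before the removal all 6 markers of the list had UMIs in the members, and the count of genes past the threshold went from 587 to 567. Of 4 tested pericyte markers 1 was higher (*Vtn*, 14.8 and 17.2 against 0 and 3.46 CPM), and the summed level of that list was 54.7 and 86.4 CPM in late and 9.52 and 45.4 CPM in early members. Of 2 tested choroid plexus markers 1 was higher (*Otx2*, 6.92 and 9.41 against 2.12 and 0.988 CPM), with a summed level of 21.4 and 1138 against 3.17 and 123 CPM. Of 10 genes of the medial pallium and hem, 9 had a positive log2 difference (median 1.09), 1 passed and 8 passed with the block. This gene was *Rspo2*, a WNT co-activator of the cortical hem, at 33.6 and 50.5 against 0 and 7.9 CPM, which was too low to be tested after the removal. None of the 6 hem genes and of the 1 choroid plexus marker that could still be tested then passed in edgeR. For the choroid plexus marker this too follows from the removal, which used that list.

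Against cycle-low RGCs, which had almost no UMIs of the rule's cycle genes, the Top2a-high RGCs were higher in replication genes and in most genes of the mitosis lists and lower in 6 of 23 genes of neurogenic commitment and 10 of 15 immediate early and stress genes. Of 11668 genes tested, 1832 (15.7%) passed, 1077 higher (9.23%) and 755 lower (6.47%), and 3234 passed with the replicate block. The cycle-low class was mixed, with 12 (26.1%) and 47 (29.0%) of its cells holding 5 or more UMIs of other cell types' markers against 4.56% and 5.93% of the members. The summed level of the choroid plexus markers was 1788 and 28434 CPM in it and 81.9 and 1980.3 CPM in the members, in which all 6 markers had UMIs. Removal of such cells from all classes left 1186 of 10524 tested genes past the threshold, 758 higher and 428 lower in the members. Of the 1186 genes 1013 were among the 1832. List counts after the removal are to be read beside these numbers. The lists that follow are therefore given with and without these cells, and the part of other cell types in the remaining differences was not tested.

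As the choice of cells fixed it, all 34 replication genes (median 2.58), all 20 genes of the CDK1 switch (4.2), all 20 of condensin and the passenger complex (4.5) and 24 of 25 of the spindle (3.63) were higher in the Top2a-high RGCs. So were 21 of 23 kinetochore (4.18), 13 of 18 cytokinesis (4.62), 11 of 20 anaphase promoting complex (0.71), 17 of 19 chromatin protein (0.96) and 9 of 15 nuclear envelope genes (1.01), and none of these lists had a lower gene. Of 18 G1 cyclin and inhibitor genes 5 were higher, 2 were lower (*Ccnd3* and *Cdkn1c*) and 11 did not pass. After the removal the genes higher were 33 of replication, 19 of the CDK1 switch, 20 of condensin, 24 of the spindle, 21 of the kinetochore, 14 of cytokinesis, 9 of the anaphase promoting complex, 12 chromatin protein genes and 7 of the nuclear envelope, and of 17 G1 genes 5 were higher and 1 lower. Neurogenic commitment genes were lower for 6 of 23 and higher for 0, and after the removal for 9 of 22. *Gadd45g*, a growth arrest gene of cells committing to the neuronal lineage, was at 9.51 and 13.9 CPM in the Top2a-high and 52.9 and 102 CPM in the cycle-low RGCs (-2.66, SE 0.34, edgeR adjusted p = 0.00123). *Hes6*, an antagonist of HES1, was at 27 and 33.2 against 114 and 94.8 CPM (-1.66, SE 0.21, edgeR adjusted p = 0.00111), and *Btg2* at 33.4 and 31.9 against 73.3 and 86.1 CPM (-1.23, SE 0.21, edgeR adjusted p = 0.00561). Both replicates of the members lay under both replicates of the cycle-low RGCs for each of the 3 genes. In the Notch pathway the ligand gene *Dll1* (2.72 and 2.16 against 10.2 and 7.56 CPM, -1.51, SE 0.43, edgeR adjusted p = 0.0473) and the fringe gene *Mfng* (-2.19) were lower and the target gene *Hey1* (0.69) was higher of 23 tested. After the removal *Dll1* (-1.61, edgeR adjusted p = 0.0481) and *Mfng* (-2.61, 0.00162) still passed and *Hey1* (0.42, 0.281) did not. *Dll1* did not pass under 4 other alternatives, among them at least 8 UMIs of the rule's cycle genes (-1.49, edgeR adjusted p = 0.0988), and *Hey1* did not under 7 others. The limits of 1 UMI of *Eomes* and of *Neurog2* applied to both classes as raw UMIs. Median depth was 16108 and 15676.5 UMIs in the members and 10028 and 10328.5 UMIs in the cycle-low RGCs. Relative to depth the limits were thus stricter for the members, and their part in the lower neurogenic genes was not tested.

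RGC identity genes were higher for 5 of 30 and lower for 1. The former included *Pax6* (239 and 215 against 145 and 112 CPM, 0.92, SE 0.17, edgeR adjusted p = 0.00925), *Nes* (265 and 259 against 159 and 119 CPM, 1.02, SE 0.17, edgeR adjusted p = 0.00429) and the transcription factor genes *Lhx2* and *Sox21* (0.66 and 0.94), and the latter was *Id3*, a BMP target gene (-1.51). With at least 8 UMIs of the rule's radial glia genes 1 was higher and 1 lower. After the removal 0 of 30 passed in edgeR, with *Pax6* at 0.46 (adjusted p = 0.134) and *Nes* at 0.60 (adjusted p = 0.0577). Of 12 genes of the medial pallium and hem 8 were lower, and 5 of 9 after the removal, among them *Rspo3*, a WNT co-activator of the hem, at 30.7 and 47.8 against 285 and 453 CPM with all cells. With the block and all cells 13 of 30 RGC identity, 8 of 23 Notch pathway and 10 of 23 neurogenic commitment genes passed. Of all 11668 genes tested 3234 passed with the block. Immediate early and stress genes were lower for 10 of 15 and, after the removal, for 5 of 13. *Fos* was at 31.4 and 25.6 against 151 and 169 CPM (-2.41, SE 0.19, edgeR adjusted p = 6.23e-05) and *Egr1* at 12.6 and 21.1 against 89.6 and 92.5 CPM (-2.3, SE 0.32, edgeR adjusted p = 0.00188). The cycle-low RGCs had a median mitochondrial share of 3.2% and 3.58% and a median of 10028 and 10328.5 UMIs, against 2.48% and 3.05% and 16108 and 15676.5 UMIs in the members. The cells had been dissociated with papain, and the part of dissociation, cell quality and depth was not tested. Without the cells with other markers *Fos* was at -2.81 (edgeR adjusted p = 1.03e-05) and *Egr1* at -2.39 (0.00401).

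Among nuclear long noncoding RNAs *Meg3*, a maternally expressed transcript, was at 26.6 and 38.8 against 309.6 and 278 CPM (-3.05, SE 0.25, edgeR adjusted p = 8.40e-05). The CDK inhibitor gene *Cdkn1c*, which holds cells out of the cycle, was at 10.5 and 30.9 against 326 and 154 CPM (-3.31, SE 0.61, edgeR adjusted p = 0.00791). This difference was -2.29 without replicate 1 and -4.87 without replicate 3, and -3.6 (adjusted p = 1.74e-04) after the removal of cells with other markers. Both *Meg3* and *Cdkn1c* were lower in each replicate of the Top2a-high than in each replicate of the cycle-low RGCs. Of 12 such RNAs 4 were lower, and 4 of 10 after the removal. Of 7 lateral genes 1 was higher with all cells and after the removal, *Meis2* (2601 and 2307 against 1257 and 942 CPM, 1.23, SE 0.18, edgeR adjusted p = 0.00251). After the removal *Meg3* was at -3.45 (edgeR adjusted p = 0.00214) and *Meis2* at 0.71 (0.0209).

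Cycling IPCs passed the same threshold for *Top2a*, *Mki67* and *Cenpf*, so that cycle genes could be tested between the 2 kinds of progenitor. Few of them passed the test, while 6 of 30 genes of RGC identity were higher in the Top2a-high RGCs and 15 of 23 genes of neurogenic commitment higher in the IPCs. Of 11668 genes tested, 233 (2%) passed, 69 higher (0.591%) and 164 lower (1.41%) in the RGCs, and 624 passed with the replicate block. The 16 and 22 IPCs gave small sums of 271611 and 355187 UMIs, against 5151264 and 10198573 for the RGCs, and this limited the test. 

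In edgeR 0 genes passed of 20 of the CDK1 switch, 20 of condensin and the passenger complex, 23 of the kinetochore, 20 of the anaphase promoting complex and 18 of cytokinesis, and 0 in DESeq2. An unadjusted p under 0.05 was reached by 3, 0, 1, 0 and 1 genes of these lists, next to 1783 of all 11668 genes tested. *Ube2c* was at 701 and 795 CPM in the RGCs and 781 and 898 CPM in the IPCs (-0.17, SE 0.19, edgeR adjusted p = 0.751), and *Cdk1* at 312 and 342 and 357 and 298 CPM. The microtubule-bound exchange factor gene *Arhgef2* was lower in the RGCs, at 26.8 and 23.5 against 77.3 and 70.4 CPM (-1.53, SE 0.24, edgeR adjusted p = 0.0152), and was the 1 gene of 25 of the spindle list to pass. *E2f1* was the 1 gene of 34 of replication to pass, at 27 and 23.4 against 77.3 and 53.5 CPM (-1.34, SE 0.26, edgeR adjusted p = 0.0394). With IPCs defined by at least 2 UMIs of *Eomes* (23 and 35 cells) its adjusted p was 0.0538 in edgeR, and with at least 8 UMIs of the rule's cycle genes 0.0824. The replicate block added the centriole gene *Cenpj*, *Rrm2*, the cyclin D1 gene *Ccnd1* (-1.19, adjusted p = 0.0251) and *Cdk6* (-0.90, adjusted p = 0.0246), with *Ccnd1* at 94.5 and 56.2 CPM in the RGCs and 313 and 67.6 CPM in the IPCs. The 2 IPC sums of *Ccnd1* thus differed from each other more than the RGC sums did.

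Lineage genes follow from the *Eomes* threshold and from the radial glia and *Neurog2* limits, which only the RGCs had to meet. They are given as a description, beside the 0.591% of all genes that were higher and the 1.41% that were lower in the RGCs. Of 30 RGC identity genes 6 were higher, namely *Id3*, *Aldoc*, *Fabp7*, *Ednrb*, *Nes* and *Phgdh*, and 16 with the block. *Aldoc* was at 299 and 297 CPM in the RGCs and 40.5 and 59.1 CPM in the IPCs (log2 difference 2.54), *Fabp7* at 4219 and 2619 and 839 and 729 CPM (2.12) and *Phgdh*, the first enzyme gene of serine synthesis, at 334 and 274 and 99.4 and 115 CPM (1.48). The glutamate transporter gene *Slc1a3*, at 552 and 316 against 228 and 152 CPM, had a difference of 1.2 and did not pass without the block. Of 23 neurogenic commitment genes 15 were lower, with *Gadd45g* at 9.51 and 13.9 against 401 and 501 CPM (-5.17), *Hes6* at 27 and 33.2 against 372 and 259 CPM (-3.34) and the RNA-binding protein gene *Elavl2* at 85.4 and 110.2 against 648 and 819 CPM (-2.9).

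In the Notch pathway the receptor gene *Notch2* was higher in the RGCs (253 and 212 against 77.3 and 92.9 CPM, log2 difference 1.43), and the ligand gene *Dll1* (2.72 and 2.16 against 73.6 and 50.7 CPM, -4.34), the fringe gene *Mfng* (-4.65) and the coactivator gene *Maml3* (-1.67) were higher in the IPCs. Of 15 immediate early and stress genes *Jun* was higher in the RGCs, at 329.6 and 311 against 95.7 and 149 CPM (1.36, SE 0.21, edgeR adjusted p = 0.0129), and of 31 cilium genes *Rfx4*, the gene of a transcription factor of ciliogenesis, was higher (1.8). With the block 10 Notch pathway genes and 4 of 26 polarity genes passed, against 4 and 0 without it. Of all 11668 genes tested 624 passed with the block and 233 without it.

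**Figure D5:**
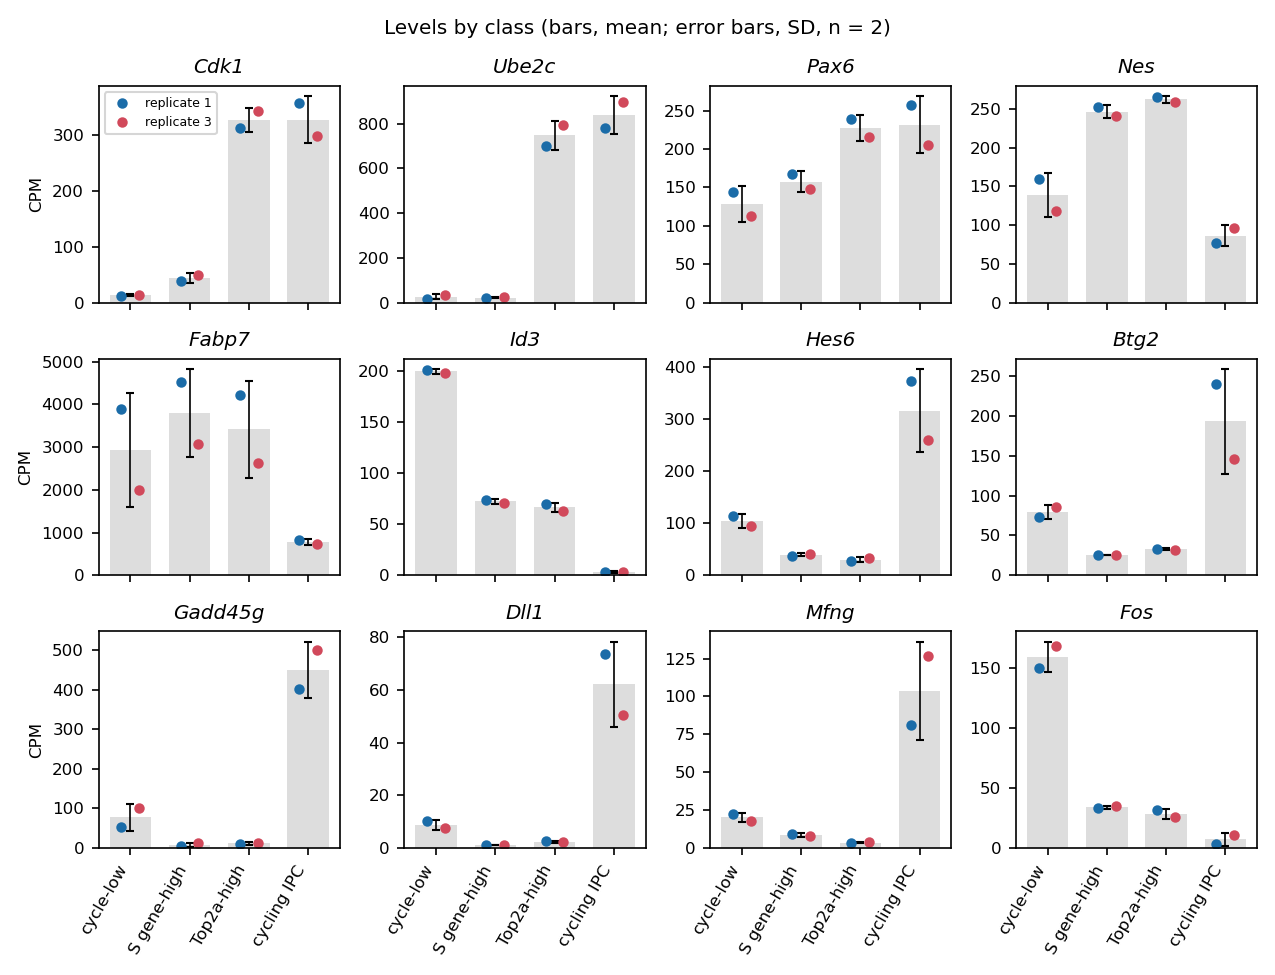
Levels (CPM, y axis from 0) of 12 genes in cycle-low RGCs, S gene-high RGCs, Top2a-high RGCs and cycling IPCs, with 1 point per replicate, bars for the mean and error bars for the SD (n = 2). Ube2c and Cdk1 are high in the Top2a-high RGCs and the cycling IPCs, and Gadd45g, Hes6 and Dll1 are highest in the cycling IPCs.

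The replicates differed in some genes of the members at a like depth. *Fabp7* was at 4219 and 2619 CPM in replicates 1 and 3, and *Slc1a3* at 552 and 316 CPM, with a UMI in 85.3% and 69.2% of the members after thinning. *Hbb-bs*, at 48.5 and 225 CPM, and *Ttr*, the transthyretin gene of the choroid plexus, at 74.7 and 1939 CPM, were higher in replicate 3. Of the 19777 UMIs of *Ttr* in the members of replicate 3, 1 cell held 7007, and 9 of the 624 cells held 20 or more. With 1 library each, these differences were not tested.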

How the data were processed

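UMI counts per gene and cell barcode, 1 matrix for each of 2 samples of the dorsal telencephalon at E14.5, were made by the authors with Cell Ranger 7.0.0 on mm10, per the labels, from 10x Genomics 3' v3.1 libraries. They were used as deposited. The annotation, the intron setting and the cell calling are not given in the sources used here, and the lowest barcodes held 502 and 500 UMIs.

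Barcodes were kept and classes chosen on raw UMIs by the thresholds given with each class. The members and all gene lists (31 lists with 492 genes) were chosen with earlier results of these data known, and so were the comparisons. Doublets were scored by a reimplementation of simulated doublets (2 per cell), and were kept. UMIs were summed per class and replicate and tested with edgeR 4.0.16 in R 4.3.3 (quasi-likelihood test, TMM scaling, filterByExpr, prior count of 2, Benjamini-Hochberg adjustment, threshold 0.05). The 4 classes were fitted together, late and early members apart, and 20 and 24 genes that chose the cells were left out. An SE was obtained by dividing the size of the fold change by the root of its F statistic. CPM were computed from the sums without TMM factors. Same-numbered sums share a library and were thus paired by it, and the correlation across genes of their deviations was 0.0627 to 0.556 between classes and 0.291 between late and early members. The main design had no block, and the block was an alternative.

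Genes named in the text are those of the lists, and in each comparison the 10 with the largest fold change in each direction among those past the threshold, changed the same way in both replicates and with at least 20 CPM in the higher class. Alternatives were DESeq2 1.42.0, library sizes without TMM, no filter on low counts, other thresholds, thinning to 5000 UMIs, doublet removal and each replicate alone. The removal of cells with 5 or more UMIs of 30 markers of other cell types, a lower *Eomes* threshold and the thinned split were added after the data were seen. Python 3.11.15 with numpy 2.4.6, pandas 2.3.3 and scipy 1.17.1 was used. The test was tried on simulated counts with known changes. At a log2 change of 0.5 it recovered 0% of changed genes in the 3 class comparisons and 3.08% between late and early members. At a change of 1 it recovered 18.6%, 37.3% and 16.9% against cycle-low RGCs, S gene-high RGCs and cycling IPCs, and 57.8% for the split. Changes of this size could thus be missed. The test also made false calls on these counts. They were 8 of all 64 calls against cycle-low RGCs, 9 of 81 against S gene-high RGCs and 3 of 49 against cycling IPCs. For the split they were 11 of 106, and 1 gene with a change of 0.5 was given the wrong sign. A part of the genes past the threshold may thus be false calls. Promoters were matched by symbol or RefSeq synonym. Wilson intervals are at 95% and cover counting error only.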

Additional observations from a re-analysis of the deposited data

How the results depend on the processing

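The replicate block raised the genes past the threshold from 1832 to 3234 against cycle-low RGCs, from 251 to 561 against S gene-high RGCs, from 233 to 624 against cycling IPCs and from 587 to 2059 between late and early members. Between late and early members the block leaves 1 residual degree of freedom. Without a filter on low counts they were 3048, 554, 922 and 1228. DESeq2 gave 407 against cycling IPCs and 390 between late and early members. Classes chosen on thinned counts gave 673 against cycling IPCs, and removal of cells with other cell types' markers 1186 against cycle-low RGCs. The share of RGCs that were Top2a-high was 45.7% with at least 8 UMIs of the rule's cycle genes, 64.1% with at least 8 of its radial glia genes and 48.5% with classes chosen on thinned counts, against 54.2%. The mean of the 2 median UMI counts was 16738 and 17151.5 with these 2 stricter thresholds, against 15892.2. The cause of these moves was not tested. With 1 replicate left out no test was possible, because 1 sum a class leaves no residual degrees of freedom, and the share of kept barcodes ranged from 5.63% to 8.34%, that of RGCs from 51.1% to 57.3% and the median UMI count from 15676.5 to 16108. Of the printed results, 7 moved beyond the spread and 65 did not without replicate 1, and 15 and 57 without replicate 3, and no direction turned. The spread was the SD of the same 2 replicate values, each of which lies within it of their mean. These counts therefore cannot show that a result holds without a library. The block brought 10 single genes past the threshold and changed no other call of a single gene. The 38 cycling IPCs gave the smallest sums and so limited that comparison.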

Other observations

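Some replication-dependent histone genes, chosen after their values were seen, differed between RGCs that were high in S phase genes and RGCs that were high in Top2a. *Hist1h1b*, a linker histone gene, was at 42.7 and 24.7 CPM in S gene-high and 456 and 378 CPM in Top2a-high RGCs (replicates 1 and 3). *Hist1h2ae*, a core histone gene, was at 77.3 and 38.7 and 1057 and 697 CPM. Within the Top2a-high RGCs *Hist1h1b* was at 372 and 385 CPM in early and 381 and 287 CPM in late members, and *Hist1h2ae* at 779.5 and 672 and 887 and 572 CPM. Cycle-low RGCs had 6.11 and 5.82 CPM of *Hist1h1b*, and cycling IPCs 291 and 346 CPM. The libraries were primed on poly(A) tails, which most such transcripts lack, so that these levels are those of the captured share only.

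The genes with the most uneven counts over the members, by the ratio of variance to mean after thinning to 5000 UMIs, included genes of no cycle list. This ratio was 166 and 656 for *Ttr*, the choroid plexus gene, in which 1 member of replicate 3 held 7007 UMIs. It was 12.5 and 13.0 for *Rspo3*, 15.8 and 11.9 for *Nrg1*, a neuregulin gene of the lateral list, and 21.9 and 11.4 for *Fabp7*, and it was 12 and 12.3 for *Csmd1*, which encodes a complement regulator.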
